A study of Mus musculus with 2 samples.

Results

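Trem2, Tyrobp, Apoe and Syk are 4 genes of a receptor pathway of macrophages. They were chosen by their symbols, and all 4 were found among the 27998 genes counted in single cells of mouse fat. Trem2 encodes a cell surface receptor that binds lipids and lipoproteins. It has no signalling motif of its own and pairs with the adaptor encoded by Tyrobp (also called DAP12), whose tyrosine motif, once phosphorylated by Src family kinases, recruits the kinase encoded by Syk. Apoe encodes apolipoprotein E, a lipoprotein component that macrophages also secrete, and lipoproteins that carry it are among the ligands of Trem2. In fat and in the brain, Trem2 is known as a marker and regulator of macrophages that take up lipid.

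The cells are the stromal vascular fraction of epididymal white adipose tissue, which is what remains of the fat pad once adipocytes are removed. All mice were wild-type C57BL/6J males 18 weeks old. The 1 library of the normal chow diet (NCD) held mice kept on chow, and the 1 library of the high-fat diet (HFD) held mice fed that diet for 12 weeks. How many mice were pooled in a library is not given in the sources used here. With 1 library per diet there are no replicates, diet and library cannot be told apart, and no test between diets was made. Each 95% interval below covers the error of counting transcripts or cells only.

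Trem2 (ENSMUSG00000023992) lies on the plus strand at chr17:48346401-48354147 of GRCm38. Syk (ENSMUSG00000021457) lies on the plus strand at chr13:52583173-52648792. Apoe (ENSMUSG00000002985) on the minus strand at chr7:19696109-19699188 and Tyrobp (ENSMUSG00000030579) on the plus strand at chr7:30413760-30417585 share chromosome 7. All 4 are protein-coding. The end of Tyrobp lies 126 bases from the end of Hcst, a related adaptor gene that is read from the opposite strand. The 250 bases before the starts of Trem2 (chr17:48346151-48346400, plus strand) and Apoe (chr7:19699189-19699438, minus strand), from RefSeq on GRCm38.p6, are shown because these members had the largest difference between the diets and the highest level. Capitals mark GAGGAA or its reverse complement TTCCTC, the core letters bound by PU.1, the macrophage factor encoded by Spi1.
Trem2: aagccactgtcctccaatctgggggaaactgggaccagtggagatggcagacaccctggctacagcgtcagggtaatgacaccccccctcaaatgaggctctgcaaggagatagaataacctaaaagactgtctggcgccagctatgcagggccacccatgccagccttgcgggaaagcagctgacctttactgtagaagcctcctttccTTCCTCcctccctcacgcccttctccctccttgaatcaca
Apoe: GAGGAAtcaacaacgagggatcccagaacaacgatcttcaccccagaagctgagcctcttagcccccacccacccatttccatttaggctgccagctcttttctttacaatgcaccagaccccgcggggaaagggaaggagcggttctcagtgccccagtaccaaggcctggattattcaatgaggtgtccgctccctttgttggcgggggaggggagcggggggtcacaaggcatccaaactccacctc
Trem2 held the motif once, beginning at position -40 from its start, and the Apoe window shown held it once at position -250. Other listed starts of Apoe lie further into the gene. The window before promoter 2 lacked the motif, and that before promoter 3 held it once at position -132. On either strand, 23.3% of 32851 promoters of this length held it. The E-box letters CACGTG and CATGTG, recognised by factors of the Mitf and Tfeb family, were in 6.02% and 12.3% of them and in neither of the windows shown. A match of letters is a description and not a bound site.

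The NCD table held 33825653 transcript counts (unique molecular identifiers, UMIs) in 7365 barcodes, with a median of 4230 per barcode. The HFD table held 18623508 in 6840 barcodes, with a median of 2020. After filtering, 7149 NCD and 6444 HFD cells were kept, and 59 of the kept barcodes were the same in both libraries. Macrophage profiles numbered 2242 (NCD) and 2202 (HFD), and progenitor profiles, the fibroblast-like precursors of adipocytes, 3138 and 2922. Free RNA, which is RNA of other cells caught in a droplet, was read from 12 stromal markers in macrophages, whose median level was 3.12% of the library level in NCD and 30.5% in HFD. In progenitors, 8 macrophage markers (among them Adgre1, C1qa and Csf1r) stood at 2.47% to 6.97% of the library level in NCD and 19.8% to 25.9% in HFD. These shares were thus several times higher in the HFD library. Levels are UMIs per 1000000 UMIs (CPM) of the summed cells of a class, and shares of cells with a UMI were taken after each cell was thinned to 1400 UMIs.

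In macrophages the receptor gene Trem2 was the member that differed most between the libraries. It had 1182 UMIs in NCD, or 135.6 CPM (128.0 to 143.6), and 8090 in HFD, or 1175 CPM (1150 to 1201). The HFD level was 8.67-fold higher (8.15 to 9.22, log2 3.12). After thinning, 14.4% of NCD macrophages (12.98 to 15.9) and 65.7% of HFD macrophages (63.6 to 67.7) had a Trem2 UMI, and 29.5% and 77.2% before thinning. In NCD progenitors, which are not known to use Trem2, the thinned share was 0.351%, and in HFD progenitors 12.9%, at median depths of 4630 and 1988 UMIs (macrophages 3732 and 2122). The share in macrophages was therefore well above that in progenitors in both libraries.

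The adaptor, the ligand and the kinase did not follow the receptor. Tyrobp went from 2435 to 3234 CPM (1.33-fold, 1.30 to 1.35), and at least 94.3% of thinned macrophages held it in either library. Apoe had 12974 CPM under NCD and 12563 under HFD (0.968-fold, 0.960 to 0.977), and the sign of this small difference depended on the setting. Syk was 1.97-fold lower in HFD (1.74 to 2.23), at 105.8 CPM (99.0 to 112.8) in NCD and 53.7 (48.4 to 59.5) in HFD, with 922 and 370 UMIs. By a 2-fold rule among genes with a mean of at least 10 CPM, 1 of 4 members was higher in HFD macrophages and 0 of 4 lower, where 8.38% of the 6861 genes were higher and 9.2% were lower. Macrophages held 87.3% (NCD) and 85.3% (HFD) of all Trem2 UMIs of their library, but 59.4% and 73.5% of those of Tyrobp, 82.6% and 69.4% of Apoe, and 58.4% and 64.1% of Syk.

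**Figure D1:**
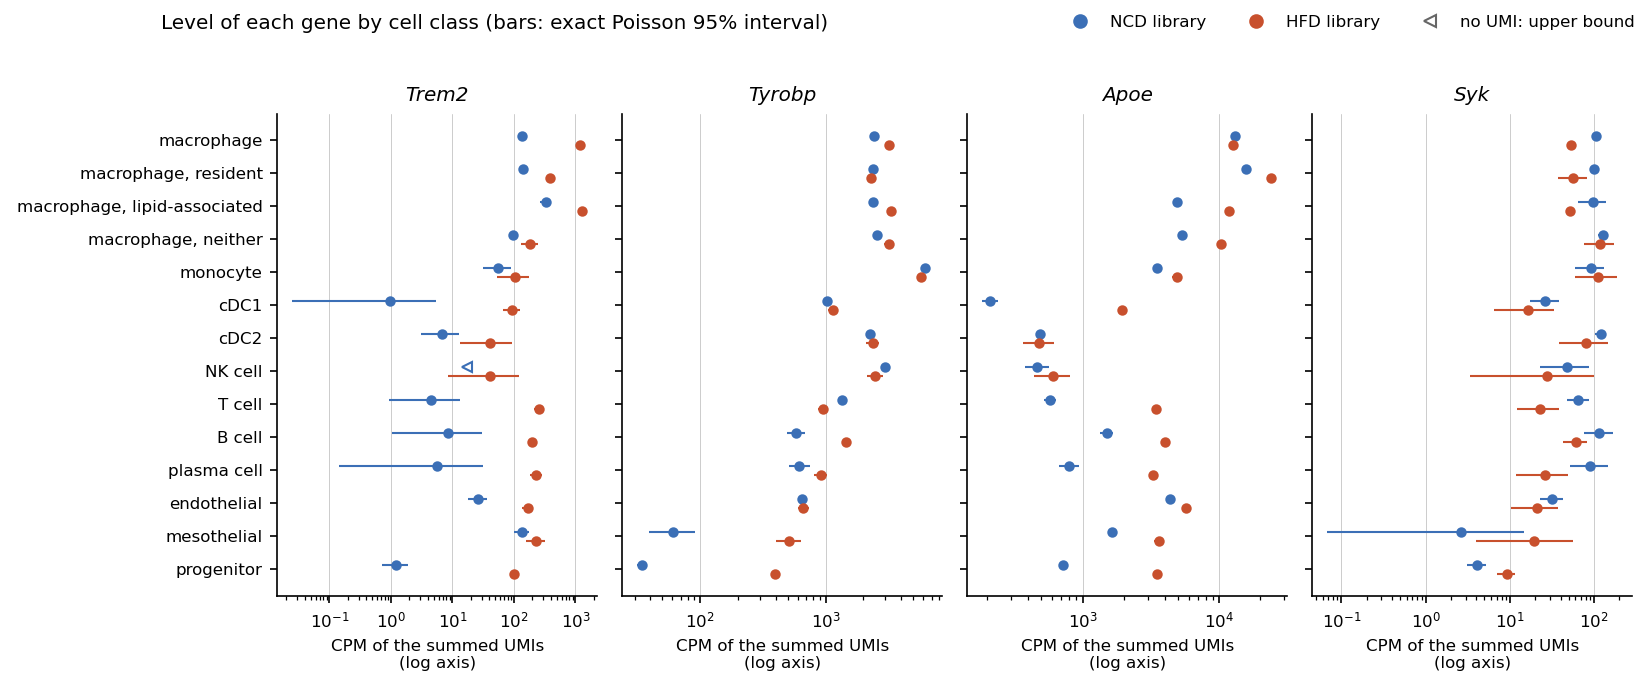
Level of each of the 4 genes (CPM, log axis) in each cell class of the NCD and HFD libraries, with bars for the exact Poisson 95% interval of counting error and an open triangle for the upper bound where no UMI was seen. Macrophage Trem2 was 136 (NCD) and 1175 CPM (HFD), and in NCD the mesothelial level of 133 CPM lay within the macrophage interval.

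The macrophages of the 2 diets belonged to different states. Clusters were built without the 4 genes and without the other genes of the pathway lists, and 1710 NCD but 169 HFD macrophages lay in clusters led by resident markers (Lyve1, Cd163, Folr2 and others). Lipid-associated clusters (Gpnmb, Spp1, Mmp12 and others) held 59 NCD and 1986 HFD macrophages, and 473 and 47 lay in neither. Trem2 was higher in HFD within each state. Stromal markers stood at a median of 3.14% (NCD) and 36.7% (HFD) of the library level in resident, 2.59% and 31.0% in lipid-associated and 2.97% and 6.26% in the remaining macrophages.

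In resident macrophages Trem2 went from 139 to 382 CPM (2.74-fold, 2.33 to 3.22), and the share of cells with a UMI from 14.4% to 33.7%. HFD resident clusters of 63 and 58 cells had stromal markers at 28.8% and 101% of the library level. In the 48 HFD resident cells outside them Trem2 was at 397 CPM, and with the library profile subtracted in the proportion of the stromal markers the resident levels were 142 and 293 CPM. In lipid-associated macrophages it went from 329 to 1271 CPM (3.86-fold, 3.18 to 4.74), and in those of neither state from 95.2 to 182 CPM (1.91-fold, 1.32 to 2.71). In resident macrophages 1 of 4 members, Trem2, passed 2-fold higher (7.78% of all tested genes) and 0 passed lower (6.25%). In lipid-associated macrophages Trem2 and Apoe passed 2-fold, against 8.75% of tested genes higher and 14.8% lower. The NCD side of that comparison is thin. Of its 59 cells, 32 belonged to 1 cluster of cycling cells in which Trem2 was at 93.2 CPM, and 102 Trem2 UMIs stood behind the whole. The rest of them lay in the clusters that HFD cells led, in groups of 12, 3, 7 and 4 cells with 256, 856, 590 and 1139 CPM, and a single cell had no Trem2 UMI.

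Clusters with cells of both diets gave the same direction. In a resident cluster with 406 NCD and 31 HFD cells, Trem2 went from 132 to 290 CPM (2.20-fold, 1.48 to 3.17). In the cycling cluster, with 32 NCD and 56 HFD cells, it went from 93.2 to 1035 CPM (11.1-fold, 6.73 to 19.7). The NCD cells of that cluster had 140 CPM of the 8 lipid-associated markers in sum and the HFD cells 2567, so the cells were not alike in state across the diets. In a cluster of neither state, with 319 and 37 cells, Trem2 went from 122 to 195 CPM (1.60-fold, 1.06 to 2.35).

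Among the HFD clusters, the level of Trem2 followed the lipid-associated markers. The highest level, 1859 CPM, was in a cluster of 173 cells that also had the highest sum of the 8 markers, 9535 CPM. Next came 1611 CPM in 530 cells with a sum of 3424, and 1391 CPM in 117 cycling cells with a sum of 3035. HFD resident clusters had 224 to 497 CPM, and the HFD cluster of neither state had 195 CPM. In NCD the range over the 8 clusters of at least 20 cells was 41.1 to 178 CPM, below each of the 12 HFD clusters of that size. The NCD groups of 12, 3, 7 and 4 cells given above, at 256 to 1139 CPM, were too small to be among them. A pair of HFD lipid-associated clusters with much stromal RNA, at 81.5% (621 cells) and 43.4% (179 cells) of the library level, had 772 and 662 CPM of Trem2. With only the clusters that had little free RNA, the difference between the diets was larger, at log2 3.33.

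**Figure D2:**
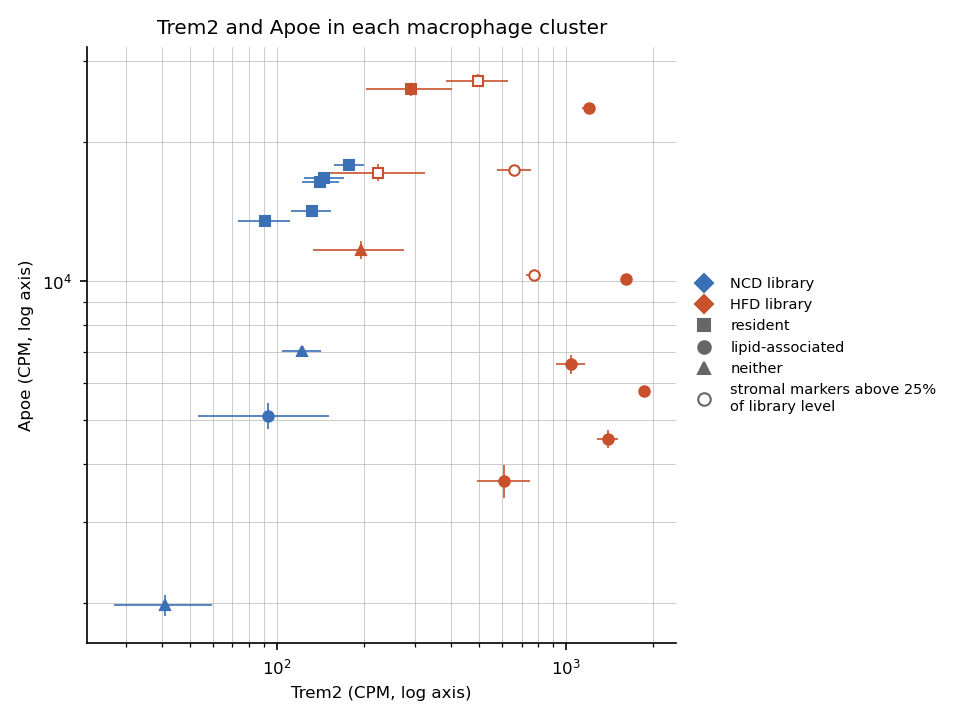
Level of Apoe against that of Trem2 (CPM, log axes) in each macrophage cluster of at least 20 cells of a library; each point is 1 cluster in 1 library, its shape gives the state, bars are exact Poisson 95% intervals and open points had stromal markers above 25% of the library level. Trem2 ran from 195 to 1859 CPM among the 12 HFD points and from 41.1 to 178 CPM among the 8 NCD points, while Apoe ran from 3670 to 27178 CPM in HFD and from 1976 to 17832 CPM in NCD, so that these points of the diets overlapped in Apoe and not in Trem2. NCD groups of 12, 3, 7 and 4 lipid-associated cells, too few to be shown, had 256, 856, 590 and 1139 CPM of Trem2, within the HFD range.

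Across the 12 HFD clusters, Pearson's r of log2(CPM + 10) between Trem2 and the summed lipid-associated markers was 0.87. Across the 8 NCD clusters it was -0.62, and there Trem2 went with the summed resident markers instead (r 0.88) and with Apoe (r 0.90). Those 8 clusters spanned only 22.2 to 151 CPM of the lipid-associated markers. NCD groups of 12, 3, 7 and 4 lipid-associated cells, with 256, 856, 590 and 1139 CPM of Trem2, were too small to enter. In HFD, r between Trem2 and Apoe was -0.45. These are descriptions over clusters that share a library, its depth and its free RNA.

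In HFD the same order was seen cell by cell. HFD macrophages with none of the 8 lipid-associated markers after thinning (430 cells) had 568 CPM of Trem2, and those with 1 (572 cells), 2 (534), 3 (332), 4 (180) and 5 or more (154) had 860, 1110, 1368, 1464 and 1582 CPM. The share of these cells with a Trem2 UMI ran from 46.3% to 81.8%. The 568 CPM of Trem2 in HFD macrophages where no such marker was seen lay above the 121 CPM of the 2094 NCD macrophages that had none. A marker not seen in a thinned cell may still be expressed there. HFD lipid-associated clusters of 260 and 179 cells had 1370 and 1039 CPM of the 8 markers in sum. Some of their cells may therefore show none after thinning. Trem2 in all kept HFD cells was at 535 CPM. Whether the 430 cells lacked the lipid-associated state, and the part of free RNA in their level, was not tested. In NCD 138 cells had 1 marker, with 202 CPM of Trem2, and 10 cells had 2 or more. Against resident markers the order ran the other way in HFD, from 1080 CPM in 1123 cells with none to 386 CPM in 37 cells with 5 or more. In NCD the corresponding levels were 184 CPM (186 cells) and 143 CPM (909 cells), with 90 to 124 CPM between them. The NCD cells thus did not show the order of the NCD clusters, since Trem2 was higher with 1 lipid-associated marker than with none and highest with no resident marker.

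**Figure D3:**
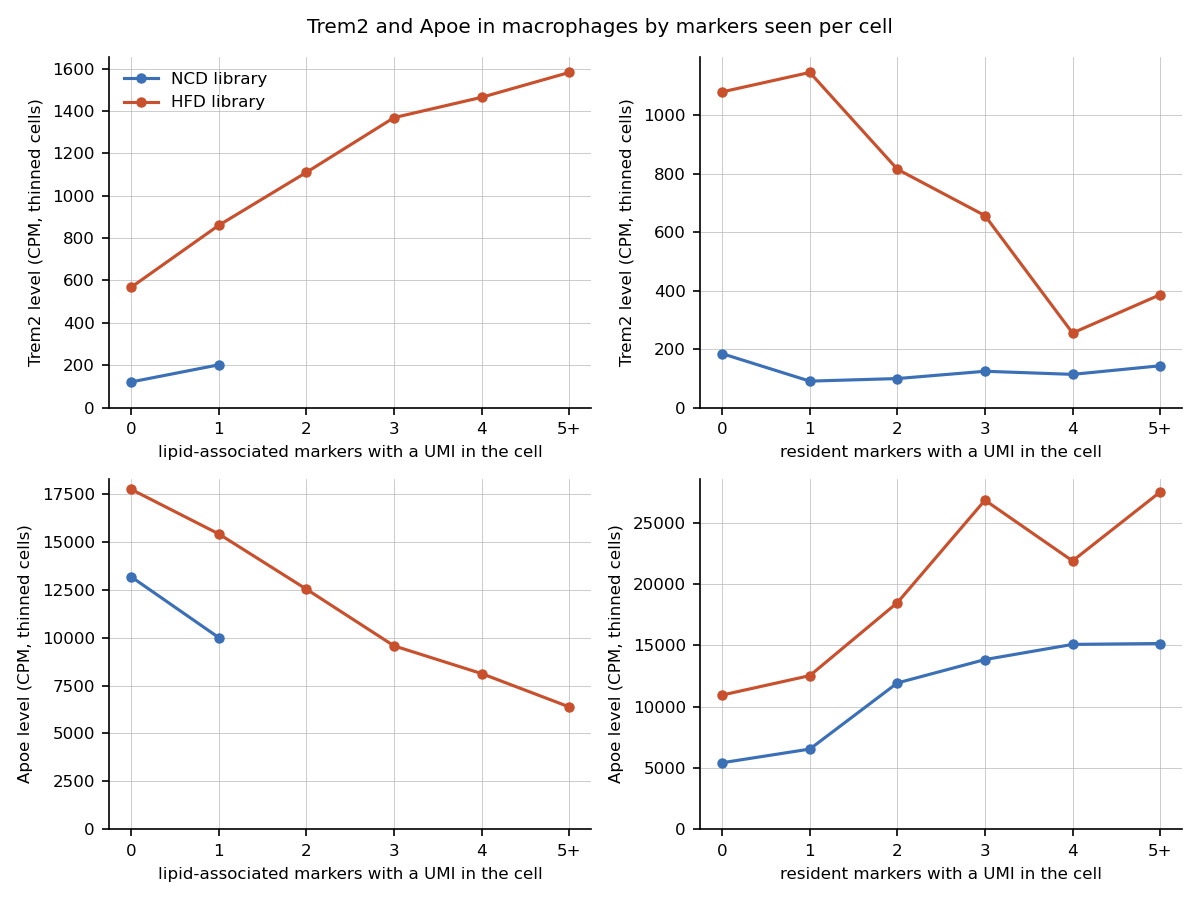
Levels of Trem2 (top) and Apoe (bottom), as CPM of the thinned UMIs, in macrophages grouped by how many of 8 lipid-associated or 8 resident markers had a UMI, for NCD and HFD. Groups under 20 cells are left out, and "5+" means 5 or more. In HFD, Trem2 went from 568 to 1582 CPM with lipid-associated markers while Apoe went from 17753 to 6387 CPM.

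Outside macrophages, Trem2 stood out in NCD mesothelial cells, the lining cells of the fat pad, which carried Upk3b, Krt19 and Msln. It had 50 UMIs in 55 cells, or 133 CPM (98.7 to 175), and the interval overlapped that of NCD macrophages. The next classes in NCD, an unnamed myeloid cluster with Saa3, Il1b and Chil3 (57.5 CPM) and monocytes (55.9 CPM), were lower, with intervals that did not reach the mesothelial one. Before thinning, 26 of the 55 cells had a Trem2 UMI (47.3%, median depth of the class 6307 UMIs), with up to 6 UMIs in a cell, and after thinning 12.7%. NCD progenitors, at a median depth of 4630 UMIs, had 18 in 3138 cells (0.574%).

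Mesothelial Trem2 came with little Tyrobp and Syk, and with some Apoe. The 8 macrophage markers in these NCD cells ranged from 0% to 13.2% of their library level (median 2.49%), and Tyrobp stood at 5.54%, against 318% for Trem2. Of the 26 cells with Trem2, 19 had no Tyrobp UMI and 9 had no UMI of any of the 8 macrophage markers. Syk had 1 UMI in the class. Apoe had 622 UMIs, or 1654 CPM, which is 39.1% of the library level and above the highest macrophage marker, and 74.5% of the thinned cells had it. At the thinned depth, 0 of 7 cells with Trem2 also had Tyrobp. Among the 4 members and the 8 markers, Trem2 alone stood above its library level in these cells.

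The mesothelial cells of the diets lay mostly in different clusters. Of the 55 NCD cells, 33 and 16 were in a pair of clusters led by Upk3b, Krt19 and Msln among others, and 6 were in the cluster that held 57 of the 60 HFD cells, which was led by Crisp1, Slpi, Akr1b7, Spink8 and Defb42 and had Krt19 and Upk3b lower among its leading genes. Those 5 genes are not among the markers used for the name. The markers themselves were lower in the HFD cells, with Msln at 1069 CPM (NCD) and 278 CPM (HFD), Upk3b at 1591 and 594, and Upk1b at 769 and 239. The diet ratios of this class are therefore not between like cells. In the HFD cells given this name Trem2 was at 226 CPM (157 to 314) from 35 UMIs, 1.70-fold the NCD level (1.07 to 2.67), but there the macrophage markers stood at 17.6% to 67.2% of the library level (median 29.1%) and Trem2 at 42.2%. Tyrobp went from 61.2 to 510 CPM. With the library profile subtracted in that proportion, Trem2 was 135 CPM in NCD and 99.3 in HFD. In mesothelial cells 3 of 4 members passed 2-fold higher (Tyrobp, Apoe and Syk) and 0 passed lower, beside 13.2% of all tested genes higher and 19.8% lower. For Syk this rested on 1 and 3 UMIs, and its interval held 1.

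In the other large classes of HFD, Trem2 stood near the macrophage markers. In HFD T cells it was at 252 CPM, or 47.1% of the library level, with the 8 markers at 36.4% to 51.5%. In HFD progenitors it was at 102 CPM (19.1%, markers 19.8% to 25.9%), from 1.19 CPM in NCD. In HFD dendritic cells it was at 91.3 CPM (17.1%, markers 16.1% to 41.3%), from 4.78 CPM in NCD. In HFD endothelial cells it was at 168 CPM (31.4%, markers 26.4% to 67.4%), from 25.8 CPM. The markers in NCD endothelial cells stood at 37.2% to 72.6% of the library level. There a cluster of 69 cells had 78.5 CPM of Trem2, and the largest cluster, of 209 cells, had 1.56 CPM. NCD natural killer cells had 0 Trem2 UMIs in 63 cells, which allows a share of cells with a UMI of up to 4.76% (3 cells of 63). The part that free RNA has in these differences was not tested. Each of these 4 HFD levels lay within or just under the range of the macrophage markers.

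**Figure D4:**
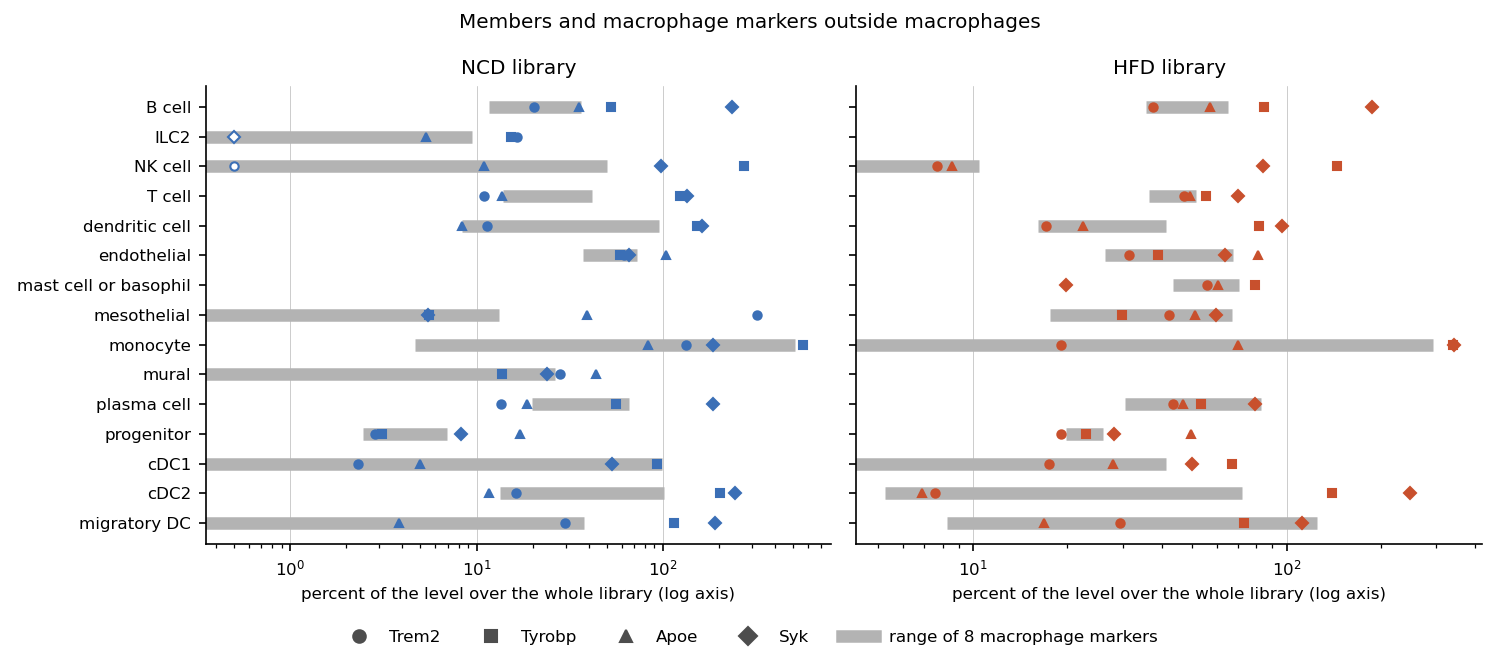
Level of each of the 4 genes in each class as a percentage of its level in the whole library (log axis), with grey bars for the range of the 8 macrophage markers in the same class. Open markers at 0.5 stand for values below 0.5%. NCD mesothelial Trem2, at 318%, lay above markers that reached 13.2% at most, whereas HFD progenitor Trem2 was at 19.1% beside markers of 19.8% to 25.9%.

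Tyrobp, the adaptor gene shared by many receptors of myeloid and natural killer cells, was led by monocytes. They had 6202 CPM (5917 to 6498) in NCD and 5787 CPM (5359 to 6239) in HFD, and all 92 and 38 of them had a Tyrobp UMI after thinning. The unnamed cluster with Saa3 and Il1b came next, at 4147 and 4259 CPM. NCD natural killer cells (2990 CPM) stood above NCD macrophages (2435 CPM), and in HFD the order was the reverse (2473 and 3234 CPM). Natural killer cells had 0 (NCD) and 3 (HFD) Trem2 UMIs, so they carried the adaptor gene nearly without the receptor gene.

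Tyrobp in macrophages differed between the diets by state. It stood at 2399 CPM in NCD and 2312 in HFD resident cells (0.964-fold, 0.906 to 1.02), an interval that held 1, and at 2441 and 2660 CPM with the library profile subtracted. In lipid-associated cells it went from 2402 to 3308 CPM (1.38-fold, 1.28 to 1.48), and in those of neither state from 2551 to 3180 CPM (1.25-fold, 1.15 to 1.35). The lipid-associated ratio depended on cluster make-up. Of the 59 NCD cells, the 32 in the cycling cluster had 1514 CPM, against 2306 in HFD. The NCD groups of 12, 3, 7 and 4 cells had 3550, 1882, 2585 and 4900 CPM. HFD cells of the same clusters had 3691, 3774, 3472 and 4222 CPM. The remaining NCD cell had 1 Tyrobp UMI. Among HFD clusters Tyrobp was highest, at 4222 CPM, in the same 173 cells that led for Trem2, and lowest, at 1617 CPM, in a resident cluster whose stromal markers were at 101% of the library level. Monocytes (0.933-fold, 0.853 to 1.02), endothelial cells (1.02-fold, 0.903 to 1.16) and the Saa3 cluster (1.03-fold, 0.939 to 1.12) had ratios whose intervals held 1. In monocytes 0 of 4 members passed 2-fold either way, beside 17.1% of tested genes higher and 11.5% lower.

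In lymphocytes the ratio of Tyrobp rested on single clusters. In T cells it went from 1358 to 948 CPM (1.43-fold lower, 1.29 to 1.60), but the cells without 1 mixed cluster with 2026 and 2408 CPM went from 325 to 439 CPM. In B cells it was 583 CPM in NCD and 1448 in HFD, and 595 and 304 CPM without another mixed cluster. Among the 4 members, Trem2 and Apoe passed 2-fold higher in T cells and Syk passed lower, where 11% of tested genes were higher and 13.2% lower. In B cells Trem2, Tyrobp and Apoe passed higher, beside 16.1% of genes, and 0 passed lower, beside 11.4%. Macrophage markers stood at a median of 46.2% (T) and 41.2% (B) of the library level in HFD, and 29.4% and 20.09% in NCD.

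The macrophage level of Apoe differed more within states than in total. The level in all macrophages was 0.968-fold, yet it was higher in HFD in each state. Resident cells went from 15849 to 24122 CPM (1.52-fold, 1.49 to 1.55), lipid-associated cells from 4914 to 11743 CPM (2.39-fold, 2.27 to 2.52) and cells of neither state from 5377 to 10256 CPM (1.91-fold, 1.82 to 1.997). The lipid-associated ratio depended on cluster make-up. Of its 59 NCD cells, 32 lay in the cycling cluster, where Apoe went from 5094 to 6584 CPM (1.29-fold, 1.19 to 1.40). The NCD groups of 12, 3, 7 and 4 cells had 8159, 513, 1406 and 3099 CPM. HFD cells of the same clusters had 23703, 10099, 3670 and 5776 CPM. HFD clusters of 621 and 179 cells, at 10276 and 17393 CPM, held 0 NCD cells. With the library profile subtracted the resident levels were 16226 and 34023 CPM (log2 1.07 instead of 0.61), and the lipid-associated ones 4932 and 13856 CPM. In both libraries resident macrophages had more Apoe than the other states. The resident state made up 1710 of 2242 NCD and 169 of 2202 HFD macrophages.

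Among the HFD lipid-associated clusters, Apoe and Trem2 were highest in different ones. The cluster with the most Apoe among them (260 cells, 23703 CPM) had 1370 CPM of the 8 lipid-associated markers and 1197 CPM of Trem2. The cluster with the most Trem2 (173 cells) had 5776 CPM of Apoe. A cluster of 50 cells was the lowest of them in both, at 608 CPM of Trem2 and 3670 CPM of Apoe. HFD macrophages with none of the 8 markers had 17753 CPM of Apoe, and those with 5 or more had 6387 CPM. Along resident markers Apoe ran from 10943 CPM with none to 27510 CPM with 5 or more in HFD, and from 5415 to 15146 CPM in NCD. Over clusters, r between Apoe and the summed resident markers was 0.93 in NCD and 0.75 in HFD, and between Apoe and the lipid-associated sum -0.63 in HFD. Apoe was thus higher where resident genes were higher in both libraries, over clusters and over cells. Trem2 went with them over NCD clusters (r 0.88) but not over HFD clusters (r -0.49) or NCD cells.

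Apoe was also the member furthest above the macrophage markers in stromal cells. In progenitors it went from 723 to 3489 CPM (4.82-fold, 4.72 to 4.93), and the thinned share of cells with a UMI from 32.0% to 89.5%. It stood at 17.1% of the NCD and 49.6% of the HFD library level, against at most 6.97% and 25.9% for the macrophage markers, so that its level exceeded theirs in both. With the library profile subtracted, it was 614 CPM in NCD and 2442 in HFD (log2 1.99), while Trem2 was at 0 in both. All 3 members that could be tested in progenitors (Trem2, Tyrobp and Apoe) were at least 2-fold higher in HFD and 0 were lower, where 3.93% of 7576 genes were higher and 3.67% lower. Syk was under 10 CPM on average, and at 8.29% (NCD) and 28.1% (HFD) of its library level it stood just above the macrophage markers.

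Progenitor clusters differed widely in Apoe. In NCD they ran from 125 to 4156 CPM over 11 clusters, with 2461 CPM in the largest (514 cells). In HFD they ran from 429 to 6244 CPM over 10 clusters. A cluster with 23 NCD and 143 HFD cells had the highest level in both libraries and a ratio of 1.502 (1.36 to 1.67), and another with 363 and 47 cells went from 219 to 429 CPM (1.96-fold, 1.58 to 2.42). Both ratios are well below the 4.82 of all progenitors, and the stromal cells of the 2 diets mostly lay in different clusters. The HFD cluster of 848 cells with 5424 CPM of Apoe also had Trem2 at 224 and Tyrobp at 840 CPM, the latter the highest of the HFD progenitor clusters. The cluster with 6244 CPM had only 20.3 and 73.0 CPM of them. Macrophage markers stood at a median of 51.5% of the HFD library level in the cluster of 848 cells and 7.65% in the other.

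Endothelial cells were next to macrophages for Apoe in HFD, at 5685 CPM, and had 4380 CPM in NCD (1.30-fold, 1.24 to 1.36). The direction was not shared by their largest cluster of both diets (209 NCD and 47 HFD cells), where Apoe was 3168 CPM in NCD and 2432 CPM in HFD (1.30-fold lower) and Tyrobp 98.6 and 308 CPM. A cluster of 69 NCD endothelial cells with 8128 CPM of Apoe also had 1856 CPM of Tyrobp and 3087 CPM of the summed resident markers, and a cluster of 126 HFD cells with 6870 CPM had stromal markers at 100.3% of the library level. With the library profile subtracted, Apoe was 4388 and 3742 CPM. In endothelial cells 1 of 4 members (Trem2) passed 2-fold higher and 0 lower, beside 7.55% and 9.86% of tested genes. Monocytes had 3499 CPM of Apoe in NCD and 4925 in HFD (1.41-fold, 1.27 to 1.56), with stromal markers at a median of 2.86% and 9.84% of the library level.

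In dendritic cells Apoe went from 354 to 1573 CPM. Their type 2 cells (209 NCD and 23 HFD), with stromal markers at a median of 8.22% of the HFD library level, had 490 and 484 CPM (0.988-fold, 0.745 to 1.29). That ratio depended on a cycling cluster that held 70 of the NCD and 5 of the HFD cells. Its NCD cells had 883 CPM of Apoe. The other NCD type 2 clusters (77 and 62 cells), with Cd209a among their leading genes, had 113 and 209 CPM. The type 1 dendritic cells (137 and 135), with stromal markers at 23.3%, went from 210 to 1961 CPM. Of the 4 members, Trem2 and Apoe passed 2-fold higher in dendritic cells (5.81% of tested genes) and Syk passed lower (8.27%).

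Syk, the kinase that reads the phosphorylated adaptor, was lower in HFD macrophages, and it was sparse. After thinning, 14.4% of NCD and 5.54% of HFD macrophages had a Syk UMI (31.9% and 12.8% before thinning), beside 0.478% and 1.27% of progenitors. It was lower in resident cells, at 99.4 and 56.0 CPM (1.77-fold lower, 1.21 to 2.71), and in lipid-associated cells, at 96.9 and 51.4 CPM (1.88-fold lower, 1.25 to 2.74). With the library profile subtracted these levels were 101 and 69.6 CPM in resident and 98.1 and 59.8 CPM in lipid-associated cells. Only 30 Syk UMIs stood behind the NCD lipid-associated level, and 18 of them came from the 32 cells of the cycling cluster. In cells of neither state Syk was at 127 and 117 CPM (0.922-fold), an interval of 0.586 to 1.39 that held 1.

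Within the resident cluster of both diets (406 and 31 cells) Syk was at 135 and 40.3 CPM, and in the cycling cluster at 105 and 40.4 CPM. Over the HFD clusters it ranged from 20.8 to 134 CPM and over the NCD clusters from 74.2 to 156 CPM, so the ranges overlapped. Syk was lowest in the pair of HFD clusters richest in stromal RNA among the lipid-associated ones (30.3 and 20.8 CPM), and r between Syk and summed stromal markers was -0.84 over all 20 points and -0.71 over the 12 HFD points. In clusters with little free RNA alone its log2 difference was -0.74 instead of -0.98. The part that free RNA has in the difference was not tested beyond these values.

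By class, Syk was spread over myeloid cells and B cells. In NCD an unnamed cluster of 247 cells with Tyrobp at 2765 and Trem2 at 8.75 CPM had 135 CPM of Syk, B cells 114, the Saa3 cluster 111, macrophages 106 and monocytes 90.8, each with an interval that overlapped the next. In HFD the Saa3 cluster had 125 CPM, monocytes 111, B cells 61.0 and macrophages 53.7, and the interval of the Saa3 cluster did not reach that of macrophages. Monocytes (1.22-fold, 0.577 to 2.47) and the Saa3 cluster (1.12-fold, 0.637 to 1.97) had wide intervals that held 1. Dendritic cells fell from 79.2 to 31.5 CPM (2.52-fold lower, 1.59 to 4.21), but type 2 cells, at 119 CPM in NCD, were 209 of 373 dendritic cells in NCD and 23 of 186 in HFD. Within type 1 cells (26.0 and 16.3 CPM) and within type 2 cells (119 and 80.7 CPM) the intervals held 1. In 108 type 2 innate lymphoid cells of NCD 0 had a Syk UMI, which allows a share of cells with a UMI of up to 2.78% (3 cells of 108).

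Receptor and adaptor were seen together mostly as often as their separate shares give. After thinning, 13.6% of NCD macrophages (12.2 to 15.1) and 63.6% of HFD macrophages (61.5 to 65.6) had both Trem2 and Tyrobp, and the products of the shares were 13.6% and 62.9%. In HFD, Trem2 was found in 66.4% (64.4 to 68.4) of cells with Tyrobp and in 48.9% (38.5 to 59.5) of the 94 cells without it. In NCD those shares were 14.4% and 14.1%. In both libraries nearly every cell with Trem2 had Tyrobp, 94.4% in NCD and 96.8% in HFD, close to the share of all macrophages with it.

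Ligand and kinase added little to this picture. Trem2 with Apoe was seen in 13.8% of NCD and 63.2% of HFD macrophages, where the products were 13.7% and 63.5%. Tyrobp and Apoe were both seen in 89.3% (NCD) and 92.6% (HFD) of macrophages, so here too the joint share could differ little from the product. Trem2 with Syk was seen in 1.96% and 3.41%, where the products were 2.08% and 3.64%. Receptor, adaptor and ligand were all seen in 13.02% (11.7 to 14.5) and 61.2% (59.1 to 63.2), and all 4 genes in 1.78% (1.28 to 2.42) and 3.32% (2.61 to 4.15). In HFD macrophages Syk was the member missing most often, while in NCD Trem2 and Syk were missing about equally often. In HFD progenitors, Trem2 with Tyrobp was seen in 7.60% of cells, and in NCD progenitors in 0 of 3138.

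Of the other ligands and receptors, few were measurable in macrophages. The list of other ligands of Trem2 held 7 genes, which were genes of lipoprotein components and Lgals3, the gene of the lectin galectin-3. None of the former that were in the table had a mean of 10 CPM. Lgals3, which is no lipoprotein gene, went from 678 to 5315 CPM (7.84-fold, 7.62 to 8.06), the nearest in size to Trem2. It was high in lipid-associated cells of both diets, at 4181 CPM in NCD and 5779 in HFD. Trem2's relatives Trem1, Trem3, Treml1, Treml2 and Treml4 had 0 to 14 UMIs each and were not tested. Of 14 other receptors that pair with Tyrobp, 8 were tested, of which 2 passed higher (Sirpb1b and Sirpb1c) and 4 lower (Clec5a, Siglech, Pilrb1 and Pilrb2). Sirpb1c went from 10.3 to 36.9 CPM, Pilrb1 from 44.9 to 4.36 and Pilrb2 from 51.4 to 7.84. The adaptors Fcer1g (2781 to 2227 CPM) and Hcst (85.2 to 76.0 CPM) did not pass, and both were lower in HFD where Tyrobp was higher.

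Among all tested genes 8.38% were higher and 9.2% lower in HFD macrophages, whose stromal markers stood at 30.5% of the library level. Of 3 tested Src family kinases, Fyn passed higher (13.7 to 29.2 CPM) and Lyn, at 128 and 70.9 CPM, was 1.81-fold lower. Of 21 tested genes downstream of Syk, 1 passed higher and 6 lower, with a median log2 of -0.54 where all 6861 genes had -0.05. The higher gene was Lat2 (64.6 to 237 CPM), a membrane adaptor that Syk phosphorylates. Lower were Pik3cg, Lcp2, Vav2, Akt2, Nfatc1 and Nfatc2, with Nfatc2, a transcription factor, at 34.2 and 7.12 CPM. Of 16 tested genes on the list of Syk inhibitors, Ptpn22 passed higher and Cd33, Siglece, Dok2 and Cbl lower. Cd33, a lectin gene whose role in these mouse cells was not tested, had 96.4 CPM in NCD and 11.3 in HFD (8.51-fold lower, 6.74 to 10.9). It was at 112 and 54.0 CPM in resident and 51.7 and 7.43 CPM in lipid-associated cells.

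Genes around Apoe and its cholesterol cargo held the most higher calls of any list. Of 12 tested genes of cholesterol export and ester handling, 5 passed higher and 1 (Cyp27a1) lower, with a median log2 of 0.33. Abcg1, which exports cholesterol, went from 12.9 to 79.9 CPM, and Nr1h3, the liver X receptor gene that drives Abcg1 and Apoe, from 8.83 to 45.6 CPM. Lipa, the lysosomal ester hydrolase, went from 107 to 375 CPM and Soat1, which makes cholesterol esters, from 39.1 to 124 CPM. The fifth was Nceh1. Lipa, Abcg1, Nr1h3 and Nceh1 were each higher in lipid-associated than in resident cells within both libraries, and Nceh1 differed little between the diets within a state (90.4 and 83.5 CPM in lipid-associated cells). Of the Apoe receptors, Scarb1 (1.94-fold) and Lrp1 (123 to 220 CPM) were tested, and neither passed.

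Nr1h3 is counted with the cholesterol genes, and the lists of sheddase and Ms4a genes and of transcription factors held no gene that passed 2-fold higher. Of 6 tested sheddase and Ms4a genes, Ms4a6b (274 to 106 CPM) and Ms4a6c (437 to 200 CPM) passed lower and 0 passed higher. Whether each of these genes acts on Trem2 was not tested. Of 10 transcription factors, 4 passed lower and 0 higher. Among the lower ones were Maf (477 to 121 CPM), Tfe3 (68.3 to 30.9 CPM) and Rxra. Maf was higher in resident than in lipid-associated cells in both libraries, at 571 and 313 CPM in NCD and 442 and 92.6 CPM in HFD. Spi1, the gene of the factor whose motif letters are marked above, was at 336 and 280 CPM in resident and 365 and 381 CPM in lipid-associated cells. Over all 11 lists, 11 of 81 tested genes (13.6%) passed higher and 21 (25.9%) lower, beside 8.38% and 9.2% of all tested genes.

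**Figure D5:**
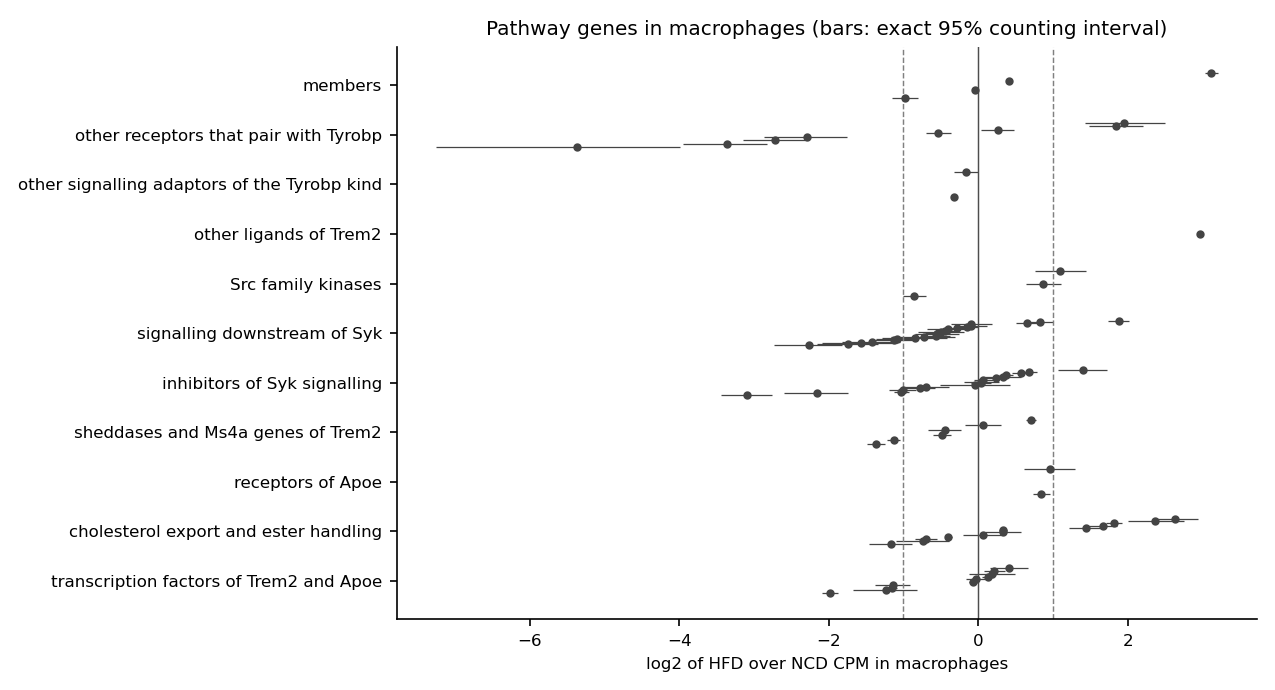
Log2 ratio of HFD over NCD CPM in macrophages for the tested genes of each pathway list and for the 4 members, with dashed lines at 2-fold either way. Each point is 1 gene with its exact 95% interval. Trem2 (3.12) and Lgals3 (2.97) lie highest, and Pilrb1 (-3.36) and Cd33 (-3.09) are among the lowest.

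The same lists in other classes gave other counts. Of all tested genes, 17.1% passed higher and 11.5% lower in monocytes, 5.81% and 8.27% in dendritic cells, 3.93% and 3.67% in progenitors and 7.55% and 9.86% in endothelial cells. Of the tested genes downstream of Syk, 1 passed higher and 2 lower of 18 in monocytes (median log2 -0.22, all tested genes 0.12) and 0 higher and 4 lower of 21 in dendritic cells (-0.65, all genes -0.11). In progenitors it was 1 higher and 0 lower of 12 (0.04, all genes -0.20) and in endothelial cells 2 higher and 0 lower of 15 (0.19, all genes -0.13). Of the inhibitors, 5 of 10 passed higher in progenitors, and of the sheddase and Ms4a genes 3 of 5 (median log2 2.85), in the library where the macrophage markers in those cells reached 19.8% to 25.9% of the library level. Their part in these calls was not tested. Cholesterol genes passed higher for 3 of 11 in monocytes, 0 of 8 in dendritic cells, 3 of 10 in progenitors and 1 of 12 in endothelial cells.

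Genes whose pattern over 14 profiles (7 classes in each library) was most like that of a member were ranked by Pearson's r of log2(CPM + 10) among 2648 genes. They are given as a description, since the profiles share libraries and free RNA. For Trem2 they were Syngr1 (0.90), Hpgds (0.89), Rap2b (0.88), Ctsd (0.88) and Prdx1 (0.86). For Tyrobp they were Fcer1g (0.99), Ctss (0.98), Clec4b1 (0.97), Spi1 (0.97) and Lyz2 (0.96). For Apoe they were Lgmn (0.94), Ms4a7 (0.91), Ctsb (0.90), C5ar1 (0.89) and Tpp1 (0.88), and for Syk Ncf1 (0.97), Cybb (0.95), Ly86 (0.95), Cfp (0.94) and Grb2 (0.93). The 4 lists shared no gene, and Trem2's nearest genes were less like it than those of Tyrobp or Syk were like theirs.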

How the data were processed

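The deposited tables hold UMI counts per gene and barcode, which the authors made with a droplet-based 3' kit and, per the submitters' processing notes, with Cell Ranger and Seurat on mm10, with no version stated. Counts were used as deposited. The members and gene lists were chosen with earlier results of these data known.

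Cells were kept with at least 500 genes, 1000 UMIs and at most 20% mitochondrial UMIs, which removed 21 NCD and 54 HFD barcodes. Scrublet's call at an expected rate of 5% removed 196 and 342 doublets. The 2 libraries were clustered together (scanpy 1.11.5, 2000 variable genes without members and pathway genes, 30 components, 15 neighbours, Leiden resolution 1, then 0.3), which gave 78 clusters. A cluster was named by at least 3 of a class's markers at 1.5-fold or more, so each name means a profile like that class. Details of naming, among them leaving out haemoglobin genes and asking for Flt3 in dendritic cells, were set after the first names were seen.

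Counts were summed by class and library. Intervals are exact Poisson for levels, conditional binomial for ratios and Clopper-Pearson for shares. A count of 0 was set to 3 in a ratio and in the upper limit on a share. The 2-fold rule used genes with a mean of at least 10 CPM. Pathway genes were named up to 4 per list by size of ratio, with a mean of at least 20 CPM, and others where a count of calls was small, after their values were seen. Genes most like a member had at least 100 CPM in a profile. Coordinates are from GENCODE vM21. A promoter was found for 3 of the 4 members. The code was tested on simulated counts. Alternatives changed the cell filters, doublet removal, class naming, free RNA, scaling, thinning depth and the filter on low levels. Some genes of the pathway lists are counted but not reported here by name.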

Additional observations from a re-analysis of the deposited data

How the results depend on the processing

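No paired analysis was possible because each diet has 1 library, and for the same reason no library could be left out. The diet and library effects, free RNA and depth (a median of 4230 against 2020 UMIs) are the limits of every value here, and 370 Syk UMIs stand behind its HFD macrophage level. Median of ratios scaling moved all genes by log2 0.20 in progenitors, 0.19 in lipid-associated macrophages, 0.14 in mesothelial, 0.13 in endothelial, 0.11 in dendritic cells and -0.12 in monocytes, and by 0.05 in macrophages.

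In macrophages, the log2 difference of Trem2 (3.12) was 3.22 with stricter cell filters, 3.24 with doublets kept, 3.33 in clusters with little free RNA and 3.39 with the library profile subtracted. That of Tyrobp (0.41) was, in the same order, 0.46, 0.49, 0.56 and 0.66, with 0.48 for classes from marker scores, 0.46 with median of ratios scaling and 0.35 as a mean per cell. That of Apoe (-0.05) was -0.094, 0.085, -0.070 and 0.18 in that order, 0.14 by marker scores, 0.0040 by median of ratios, 0.018 as a mean per cell and 0.025 without the cycling clusters. Its sign therefore depends on the setting. That of Syk (-0.98) was -0.78 with stricter filters, -0.73 by marker scores, -0.74 with little free RNA, -0.77 subtracted and -1.37 as a mean per cell.

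The pathway genes at least 2-fold higher (11) were 29 with no filter on low levels and 5 with a mean of at least 50 CPM, and those lower (21) were 7 with the latter. The share of macrophages with Trem2 in NCD (14.4%) was 19.5% at 2000 UMIs and 29.5% unthinned. In HFD (65.7%) it was 69.1% with stricter filters, 68.8% by marker scores, 75.0% with little free RNA, 78.3% at 2000 UMIs and 77.2% unthinned. Of the differences of at least 2-fold, directions turned for the median of receptors that pair with Tyrobp with no low filter (1.13), Syk in progenitors (-0.25) and Tyrobp in mesothelial cells (-0.92) with the profile subtracted, Syk in T cells with doublets kept (1.14), and, both with little free RNA and without the mixed clusters, Tyrobp (-0.97) and Apoe (-0.40) in B cells. Smaller differences changed sign too. With the profile subtracted these were Apoe in endothelial cells (0.38 to -0.23), Trem2 in mesothelial cells (0.76 to -0.45), Trem2 in monocytes (0.87 to -0.028) and Tyrobp in resident macrophages (-0.053 to 0.12, and 0.10 with little free RNA). Tyrobp in T cells (-0.52) was 1.31 with doublets kept, 0.17 by marker scores and 0.43 without the mixed cluster, and Tyrobp in monocytes (-0.10) was 0.99 by marker scores. Syk in endothelial cells (-0.62) was 0.32 with little free RNA, Tyrobp there (0.036) was -0.15 with stricter filters, and the median of Src family kinases (0.87) was -0.85 with a mean of at least 50 CPM. The median of the transcription factors (-0.050) was 0.043 with the profile subtracted and just above 0 with doublets kept, by marker scores and by median of ratios. Alternatives without named clusters and those within macrophage states were chosen after the data were seen. The cause of these shifts was not tested.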
